A study of Danio rerio with 6 samples.

Results

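The RNA of zebrafish embryos injected with a morpholino against dnmt1 (dnmt1 morphants) was set against the RNA of control embryos, both taken as whole embryos at the 10-somite stage. Each group was 1 library, so the comparison holds 2 of the 6 samples of the series, and the 4 others are methylated DNA libraries of an earlier stage. The labels do not state the kind of morpholino, its dose, any injection of the controls and the number of embryos pooled. Morpholinos are antisense oligomers that keep a chosen RNA from being translated or spliced. The morphant library held 10.054 M reads assigned to genes (M, megareads) and the control library 9.898 M. Of 24832 gene IDs, 13575 had at least 50 reads over both libraries and are called measured here. A gene was counted as higher or lower when its reads per library total differed at least 2-fold: 254 genes were higher in the morphants and 90 were lower. Those 344 genes are described below by function, level and length. With 1 library per group no difference could be set against a spread between replicates, and the 95% intervals given with folds are exact Clopper-Pearson intervals that cover counting error only.

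The dnmt1 protein copies cytosine methylation from the old DNA strand onto the new one after replication. Vertebrate embryos use this methylation to hold many germ line, repeat and lineage genes silent, and loss of Dnmt1 function in zebrafish is known for defects of organs that form late in development. Embryos of this stage are still building the trunk, and their RNA comes from neural plate, somites, epidermis, notochord and the first blood and kidney precursors together. In whole embryos, fewer cells of a type and less RNA per cell cannot be told apart.

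The dnmt1 transcript itself had 3194 reads in morphants, against 2423 in controls, which is 1.30-fold (1.23 to 1.37). It was thus measured well in both libraries and was not lower in the morphants, and RNA level does not check a morpholino that acts on translation.

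Genes at least 2-fold apart were a small share of the transcriptome. They made up 2.53% of the measured genes, with 1.87% higher and 0.663% lower in morphants. The median log2 ratio of all measured genes was 0.03, and 54.3% of them lay above 0. Most of the higher genes were modestly so: 131 of the 254 lay between 2- and 2.5-fold and the median fold was 2.49. A tail of 46 genes was at least 4-fold higher and 20 were at least 10-fold higher. Among the lower genes only cacng2a and sult2st3 were at least 4-fold lower, and the median fold was 0.425. For 84 of the higher and 13 of the lower genes the whole counting interval lay past 2-fold. None of the 344 intervals included 1, but this follows from the 2-fold limit together with the read minimum and is no separate support.

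**Figure D1:**
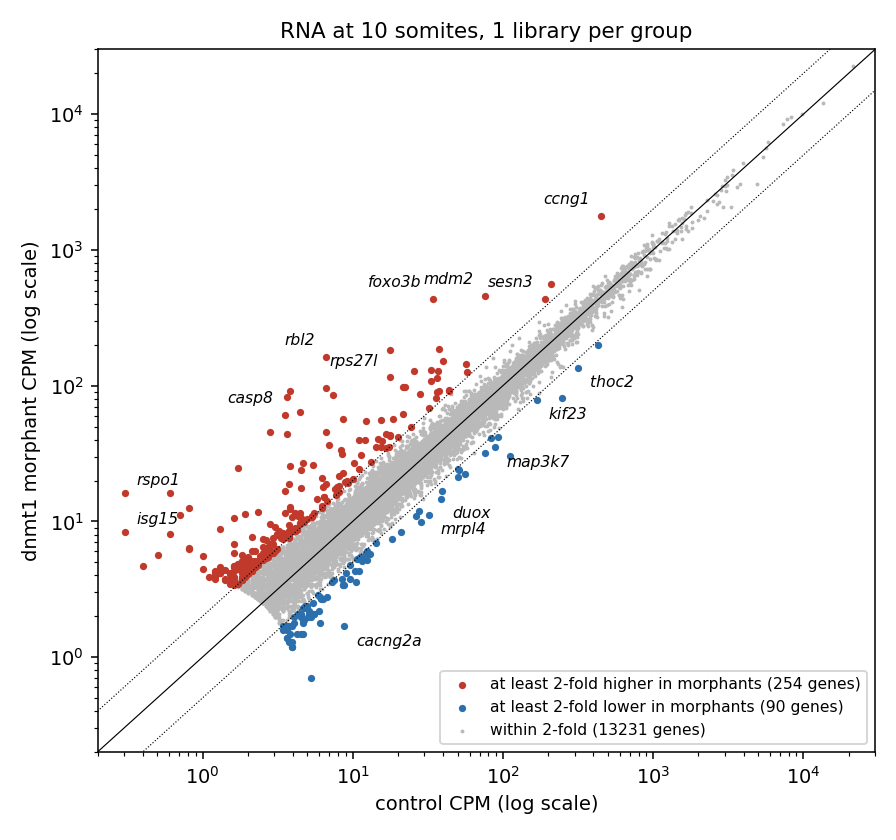
CPM (library-scaled read count) of each measured gene in the dnmt1 morphant library (vertical, log scale) and the control library (horizontal, log scale); dotted lines mark 2-fold. Of the 254 higher genes a tail of 46 was at least 4-fold higher, against 2 of the 90 lower genes at least 4-fold lower. The median fold was 2.49 for the higher genes and 0.425 for the lower genes.

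In reads, the higher genes weighed more than the lower ones. The 254 higher genes together took 9405 CPM (counts scaled to a common library total) in morphants, against 2661 CPM in controls, and the 5 most-read of them gave 40.2% of that gain. Cyclin G1 (ccng1) alone took 1780 CPM in morphants and 451 in controls. The 90 lower genes took 1048 CPM in morphants and 2498 in controls. The share of a gene's length touched by reads, as the deposited tables give it, moved with the read counts. This share comes from the same libraries and rises with the number of reads, so it is no independent check of the counts. It was larger in morphants for 249 of the 254 higher genes, with a median of 70.7% in morphants and 44.9% in controls. Among the 90 lower genes it was smaller in morphants for 86, with a median of 43.7% in morphants and 62.6% in controls. One higher gene went clearly the other way: si:ch211-274k16.6 had 95 reads over 12.7% of its length in morphants, against 37 reads over 25.5% in controls.

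Higher genes were mostly genes with little RNA in control embryos. When the measured genes were cut into 5 equal classes by control level, 6.59% of the lowest class were higher in morphants, against 1.33, 0.74, 0.55 and 0.15% in the classes above it. Lower genes were also most frequent in the lowest class, at 1.58%, and made up 0.92, 0.22, 0.26 and 0.33% of the others. Part of this follows from the read minimum: a measured gene with 16 control reads or fewer is always at least 2-fold higher, which holds for 45 of the 254, and 13 of the 90 lower genes are placed likewise by 16 morphant reads or fewer. Counting error also shapes the low classes, and the control reads that set the class are the divisor of the fold. The size of these parts was not tested. Classes by the mean of both libraries still ran downward, with 5.08, 1.84, 0.99, 0.88 and 0.55% higher and 1.99, 0.59, 0.26, 0.33 and 0.15% lower. With at least 200 reads required, 2.91% of the lowest control class were higher and 0.05% were lower, against 0.16 and 0.26% of the highest class. By the mean of both libraries at that minimum the slope was weaker, with 1.48, 0.95, 0.85, 1.06 and 0.32% higher, and the lower genes showed none, with 0.16, 0.32, 0.21, 0.26 and 0.21%. Per length, as RPKM (reads scaled to library total and gene length), the median higher gene stood at 4.63 in morphants and 1.62 in controls, and the median lower gene at 1.66 RPKM in morphants and 3.88 RPKM in controls. All measured genes had a median of 9.66 RPKM in morphants and 9.41 RPKM in controls.

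Gene length showed no such slope. From the shortest to the longest of 5 equal classes, 1.84, 1.95, 2.1, 1.69 and 1.77% of the genes were higher in morphants and 0.85, 0.63, 0.55, 0.85 and 0.44% were lower. The median listed length was 2195 bases for higher genes, 2219 bases for lower genes and 2239 bases for all measured genes. By transcript type, 11 of 181 measured processed transcripts (RNAs with no open reading frame assigned) were higher in morphants, which is 6.08%, against 1.82% of 13370 protein-coding genes, and 3 were lower (1.66%, against 0.64%). Of those 11 higher processed transcripts 6 had fewer than 25 control reads. The type does not by itself make them noncoding: nupr1a, with 548 reads in morphants and 121 in controls, has a KEGG match to a nuclear protein. Genes without a symbol made up 26.7% of the lower genes, 12.6% of the higher genes and 10.5% of all measured genes.

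**Figure D2:**
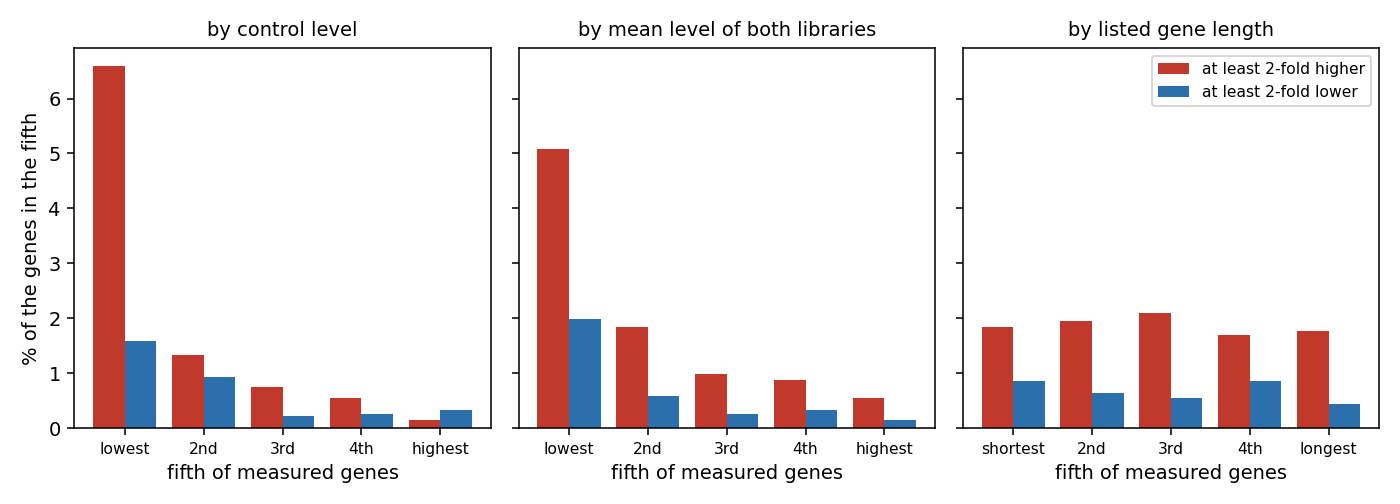
Percent of measured genes at least 2-fold higher (red) or lower (blue) in morphants, in 5 equal classes by control level, mean level and listed gene length. The share of higher genes falls from 6.59% to 0.15% across the classes of control level and stays between 1.69 and 2.1% across the classes of length.

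The most-read higher genes include several that act in the control of the cell cycle or of cell death, in either direction. ccng1, a cyclin known for its induction by DNA damage, had 17898 reads in morphants and 4465 in controls (3.95-fold, 3.82 to 4.08). mdm2, an E3 ubiquitin ligase, had 4627 reads in morphants and 754 in controls (6.04-fold, 5.59 to 6.53). baxa, the Bax protein that opens the outer mitochondrial membrane in apoptosis, had 1146 reads in morphants and 360 in controls (3.13-fold, 2.78 to 3.54). All 3 were well covered in both libraries, over at least 84.0% of their length. rbl2, a retinoblastoma-family pocket protein that restrains E2F factors, had 1634 reads in morphants and 66 in controls (24.4-fold, 19.1 to 31.7), and its covered length was 83.4% in morphants and 29.9% in controls.

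Other most-read higher genes act in insulin, FoxO and growth-factor signalling. foxo3b, a forkhead factor that insulin signalling keeps out of the nucleus, had 4393 reads in morphants and 338 in controls (12.8-fold, 11.5 to 14.3). sesn3, a sestrin that restrains the mTOR kinase complex, had 4394 reads in morphants and 1893 in controls (2.29-fold, 2.17 to 2.41). pik3r3a, a regulatory subunit of phosphoinositide 3-kinase, had 1537 reads in morphants and 394 in controls (3.84-fold). These genes have different roles in the pathway, whose activity RNA levels do not measure. rps6ka3a, a ribosomal S6 kinase downstream of ERK, had 1267 reads in morphants and 568 in controls (2.20-fold). Outside the 15 most-read, igf2a, an insulin-like growth factor, had 988 reads in morphants and 222 in controls (4.38-fold).

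The other most-read higher genes were of mixed function. rnf169, a RING-finger ubiquitin ligase that binds ubiquitylated chromatin at DNA breaks, had 1879 reads in morphants and 372 in controls (4.97-fold). zgc:110425, whose KEGG match is histone H1, had 1828 reads in morphants and 174 in controls (10.3-fold), and reads covered only 51.4% of it in morphants and 47.0% in controls. Linker histones are a multigene family, and reads common to several members are not in these counts of uniquely mapped reads, so its value is uncertain. mmp2, a gelatinase of the extracellular matrix, had 1300 reads in morphants and 367 in controls (3.49-fold). GTPBP1, a GTP-binding protein, had 1281 reads in morphants and 253 in controls (4.99-fold). si:ch1073-170h8.3, matched to a subunit of the RNA polymerase I initiation factor, had 1305 reads in morphants and 330 in controls (3.89-fold), and ankrd50l, an ankyrin-repeat protein, had 1442 reads in morphants and 566 in controls (2.51-fold).

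Lists of genes by pathway set these beside their relatives. The lists were drawn up with earlier results of these data known, so their counts of higher genes are a description only. Beside the counts of these and the later lists stand 1.87% higher and 0.663% lower over all measured genes. Of 13 measured cell cycle inhibitors and pocket proteins, 4 were at least 2-fold higher in morphants (ccng1, rbl2, cdkn1ba and cdkn1a), and the median log2 ratio of the list was 0.19. cdkn1ba, an inhibitor of cyclin-dependent kinases, had 809 reads in morphants and 356 in controls (2.24-fold). The better-read relatives btg2 and rb1 stayed within 2-fold, at 1.04-fold and 1.17-fold. None of 19 cyclins, CDKs and mitotic kinases was past 2-fold, although 14 of them lay below 0 and the median log2 ratio was -0.18. The mitotic kinase plk1 had 2739 reads in morphants and 3106 in controls (0.868-fold), and the cyclin ccnb1 had 2192 in morphants and 2046 in controls (1.06-fold).

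In the cell death lists the change was carried by single genes. Of 11 measured Bcl2-family genes 2 were higher (baxa and bbc3), and the median log2 ratio of the family was 0.01. The death-restraining members bcl2l1 and mcl1b stood at 1.25-fold and 0.956-fold. Of 18 caspases, death receptors and adaptors only casp8, an initiator caspase, was higher, with 615 reads in morphants and 35 in controls (17.3-fold, 12.3 to 25.1). The executioner caspase casp3a stood at 0.961-fold and the list's median log2 ratio was -0.02. These lists did not hold every gene of their kinds. Outside them, bnip4 had 927 reads in morphants and 432 in controls (2.11-fold). The death domain gene pidd1 had 68 in morphants and 28 in controls (2.39-fold). si:dkey-204l11.1, whose distant KEGG match is a tumor necrosis factor receptor family member, had 646 in morphants and 44 in controls (14.5-fold). In the insulin, FoxO and mTOR list 3 of 24 measured members were higher (sesn3, foxo3b and sesn1) and the median was 0.10, while akt2 stood at 0.921-fold and pik3r1 at 1.17-fold.

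AP-1 factors, the Fos, Jun and related Atf families of stress- and growth-responsive transcription factors, also held higher genes. This list and the other small families of this paragraph and the next were drawn up after the values were seen. Of 8 measured AP-1 genes 5 were at least 2-fold higher in morphants, all 8 lay above 0 and the median log2 ratio was 1.46. The 5 were fosab, fosl1a, junbb, junba and atf3, and atf3 is also the higher gene of the heat shock list below. fosab had 443 reads in morphants and 36 in controls (12.1-fold, 8.62 to 17.5), fosl1a had 117 in morphants and 23 in controls (5.01-fold), and junbb had 110 in morphants and 43 in controls (2.52-fold). The 3 remaining measured members were within 2-fold, among them jun with 301 reads in morphants and 207 in controls (1.43-fold) and fosl2 with 232 in morphants and 211 in controls (1.08-fold). fosl1a and junba had fewer than 25 control reads and passed the read minimum through their morphant reads, and with at least 200 reads required the list median was 0.52. Other immediate early genes did not share this: 0 of 13 measured members outside AP-1 were past 2-fold and their median was -0.13, with egr1 at 57 reads in morphants and 62 in controls.

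Clock genes and the phlda family also held several higher genes. Of 24 measured circadian clock genes 3 were higher and 1 was lower, beside a list median of 0.07. Over all measured genes 1.87% were higher and 0.663% lower. The repressor nr1d2b had 400 reads in morphants and 119 in controls (3.31-fold), ciarta had 177 in morphants and 45 in controls (3.87-fold), per3 had 84 in morphants and 37 in controls (2.24-fold), and the lower gene rorb had 17 in morphants and 35 in controls (0.478-fold). The core clock gene clockb stood at 0.881-fold. The labels do not state the hour at which either group was collected, and its part in these values was not tested. All 3 phlda genes, which encode small pleckstrin homology-like proteins, were higher: phlda3 with 972 reads in morphants and 66 in controls (14.5-fold), phlda2 with 80 in morphants and 31 in controls, and phlda1 with 77 in morphants and 21 in controls. With fewer than 25 reads where they are low, rorb and phlda1 passed the read minimum through the library where they are high.

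Interferon-linked genes leaned upward at low counts. All 13 measured members lay above 0 with a median log2 ratio of 0.40, and 3 were past 2-fold: isg15 with 84 reads in morphants and 3 in controls, STING1 with 38 in morphants and 15 in controls, and eif2ak2 with 34 in morphants and 16 in controls. Each of these passed the read minimum only through its morphant reads. The best-read members adar and stat3 stood at 1.05-fold and 1.11-fold. Of 16 NF-kB and inflammation genes none was past 2-fold, and the median was -0.05.

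Stress and housekeeping lists together held 4 higher genes of 141 (2.84%), beside the 1.87% of all measured genes. The heat shock and unfolded protein list had 1 higher gene of 28, the factor atf3, with 91 reads in morphants and 30 in controls (2.99-fold), beside a median of -0.03 and the chaperone hspa8 at 1.01-fold. Not on that list, the heat shock gene hsp70.3 had 64 reads in morphants and 8 in controls (7.88-fold, 3.77 to 19.0). It passed the read minimum through its morphant reads. The oxidative stress list had 1 of 19, the regulator nfe2l2b with 63 reads in morphants and 8 in controls, and the autophagy list had 1 of 28, the membrane protein atg9a with 53 in morphants and 24 in controls. Both had fewer than 25 control reads and so passed the read minimum through their morphant reads. Glycolysis had 1 of 14, the aldolase aldocb, with 169 reads in morphants and 35 in controls (4.75-fold). None of 36 oxidative phosphorylation subunits and none of 16 cholesterol synthesis genes was past 2-fold, with medians of 0.14 and 0.12.

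**Figure D3:**
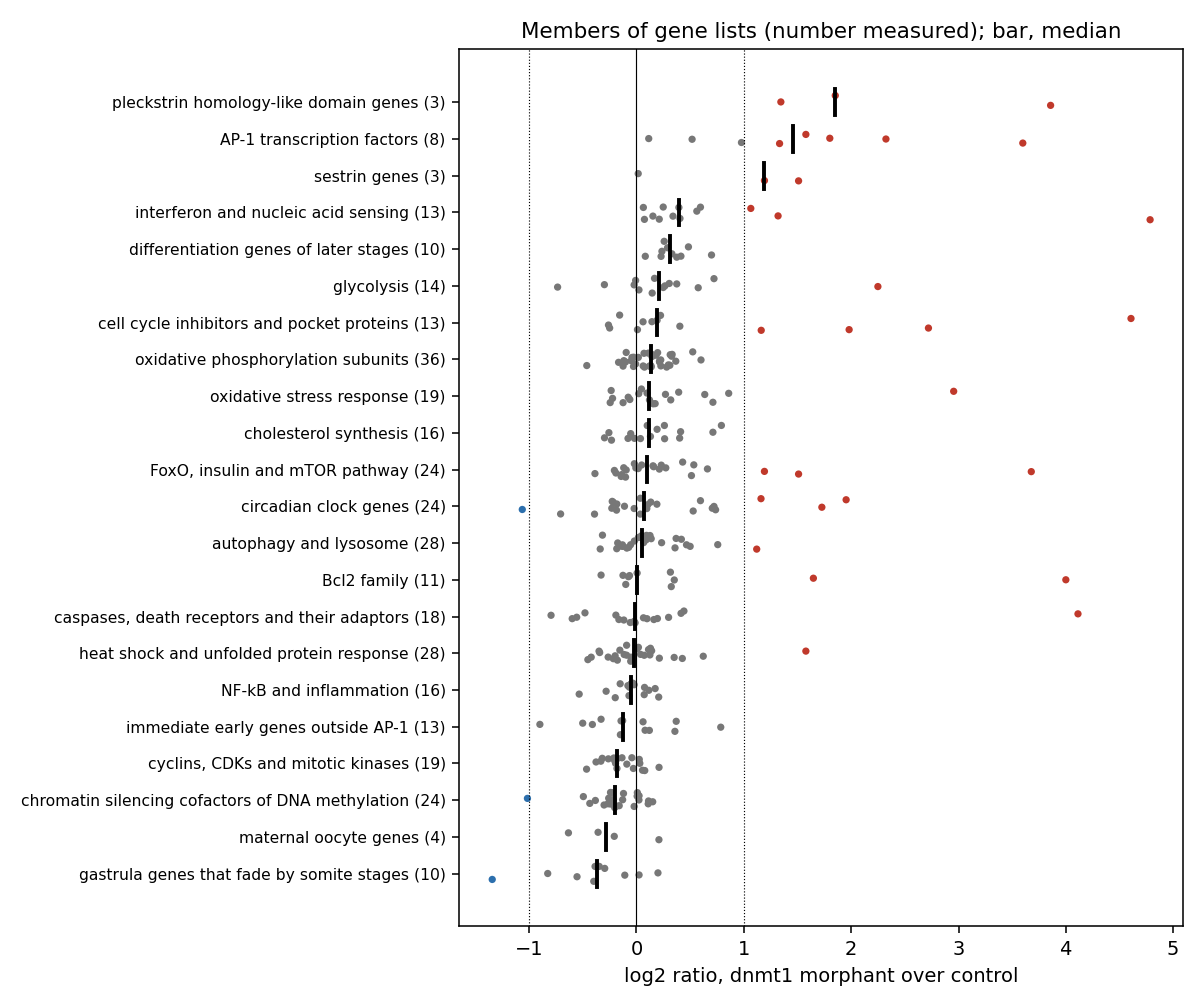
Log2 ratio of dnmt1 morphant over control for each measured member of the gene lists (points; red at least 2-fold higher, blue at least 2-fold lower), with the list median as a bar. The AP-1, sestrin and phlda lists have medians past 2-fold, while in the other lists that hold red points the median is at or below 0.40.

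The Gene Ontology process terms in the deposited tables give a wider view. Of 9803 measured genes with such an annotation 1.79% were higher and 0.53% lower, against 2.09 and 1.01% of the 3772 without one. Of 754 terms with at least 10 measured genes, 463 held no gene past 2-fold. Terms were gathered into broad groups by key words, and a gene can stand in several groups. Ion transport had 10 higher genes of 211 (4.74%) and heart and vessel terms had 17 of 410 (4.15%), against the 1.87% of all measured genes. Ion transport also held 3 lower genes (1.42%, against 0.663%) and heart and vessel terms 3 (0.73%). Genes with fewer than 25 control reads, which reached the minimum of 50 only through their morphant reads, were 4 of the 10 higher ion transport genes and 10 of the 17 higher heart and vessel genes, so these shares depend on the minimum. All 3 lower ion transport genes had fewer than 25 morphant reads. Programmed cell death had 16 of 609 (2.63%), the cell cycle 17 of 676 (2.51%) and DNA repair and damage response 5 of 234 (2.14%). Of these higher genes 4 of 16, 6 of 17 and 1 of 5 had fewer than 25 control reads. The deposited terms did not place baxa in the cell death group, nor ccng1, cdkn1ba and cdkn1a in the cell cycle group. These shares thus leave out some higher genes of the same functions. At the other end, DNA replication had no gene past 2-fold of 120 in either direction, and RNA processing had no higher and 3 lower genes of 351.

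The most-read higher genes of ion transport were transporters. SLC4A2, an anion exchanger, had 571 reads in morphants and 183 in controls (3.07-fold). The potassium-chloride cotransporters slc12a7a and slc12a7b were both higher, with 497 and 273 reads in morphants, against 243 and 101 in controls. abcc5, an ATP-driven exporter, had 989 reads in morphants and 214 in controls (4.55-fold). The group's median log2 ratio was 0.07, close to the 0.03 of all measured genes.

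The heart and vessel group drew on genes of several kinds. Its 4 most-read higher members were casp8, col1a2, rspo1 and ENSDARG00000053865. col1a2, a fibrillar collagen chain, had 196 reads in morphants and 89 in controls (2.17-fold), and rspo1, a secreted agonist of Wnt signalling, had 163 in morphants and 3 in controls. Further members were expressed in muscle or heart, such as tnnt2c, a troponin T, with 87 reads in morphants and 38 in controls, and the gap junction gene gja1b, with 51 in morphants and 18 in controls. The group's median log2 ratio was 0.04. The heart muscle marker myl7 had 1 read in each library.

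Among single terms with at least 10 measured genes, the highest shares of higher genes were in small terms. Over all measured genes 1.87% were higher, against 19.05% of one-carbon metabolic process and 16.67% of receptor-mediated endocytosis. Collagen fibril organization had 13.64% and positive regulation of apoptosis 11.36%. One-carbon metabolic process had 4 of 21: mat2al, an S-adenosylmethionine synthetase, with 370 reads in morphants and 69 in controls (5.28-fold), the glycine methyltransferase gnmt with 83 in morphants and 34 in controls, and the carbonic anhydrase family genes ca8 and ca6. S-adenosylmethionine is the methyl donor that DNA methyltransferases use, and carbonic anhydrases share only the term. Collagen fibril organization had 3 of 22 (col14a1a, col1a2 and loxl2b), and here the term as a whole lay upward, with 16 of 22 above 0 and a median log2 ratio of 0.46. col14a1a had 395 reads in morphants and 154 in controls (2.53-fold). Receptor-mediated endocytosis had 4 of 24, at low counts, with loxl2b at 43 reads in morphants and 16 in controls and vtna at 42 in morphants and 15 in controls. All 4 had fewer than 25 control reads and passed the read minimum through their morphant reads. Of these, loxl2b and vtna were placed past 2-fold by the read minimum. This share thus depends on the minimum, to an extent that was not tested. Positive regulation of apoptosis had 5 of 44: casp8, bbc3, fosl1a, the nuclease endog and aldh1a3. Of these, fosl1a and aldh1a3 had fewer than 25 control reads and passed the read minimum through their morphant reads. In the one-carbon term ca6, and in the collagen term loxl2b, were placed past 2-fold by the read minimum.

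**Figure D4:**
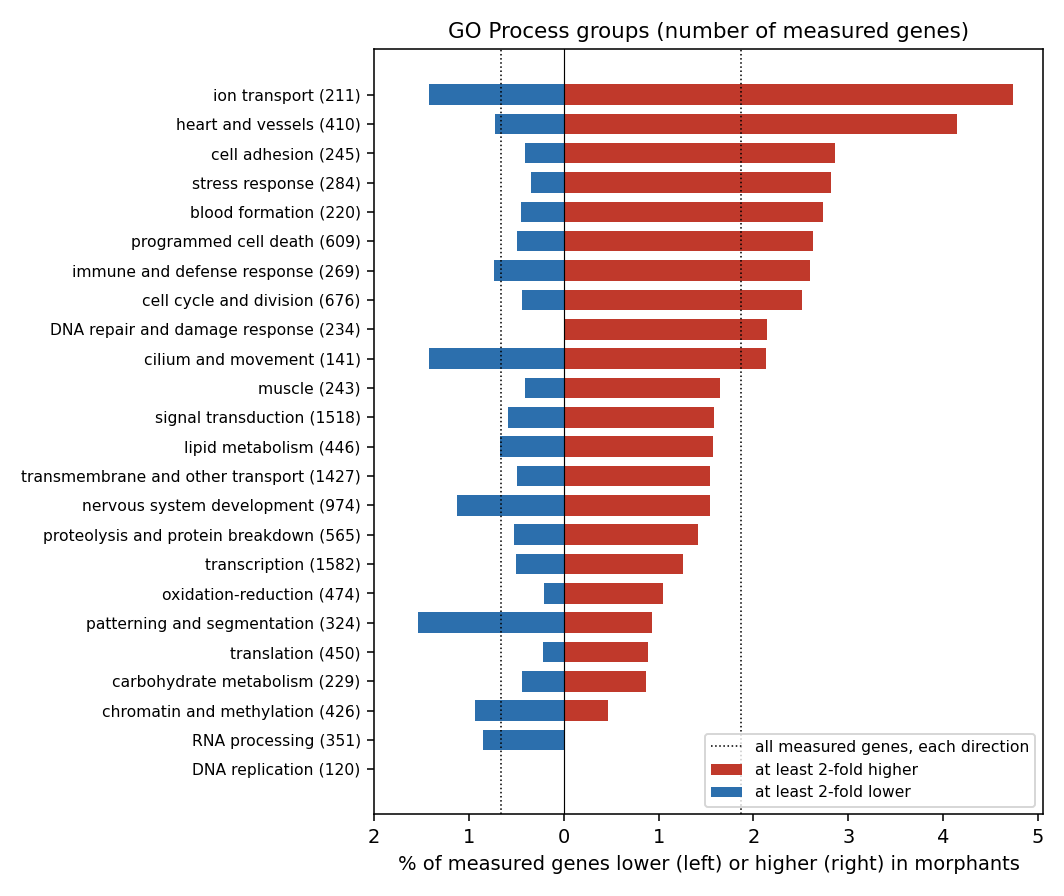
Percent of the measured genes of each GO Process group at least 2-fold higher (right, red) or lower (left, blue) in morphants; dotted lines give the shares over all measured genes, 1.87% and 0.663%. Ion transport and heart and vessels have the longest red bars, and DNA replication has no bar on either side.

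The most-read lower genes included 4 with roles in RNA handling or chromatin, although lower genes were 0.85% of RNA processing genes (3 of 351) and 0.94% of chromatin and methylation genes (4 of 426), near the 0.663% of all measured genes. thoc2, a subunit of the THO complex that couples transcription to mRNA export, had 1366 reads in morphants and 3150 in controls (0.427-fold). nsun2, an RNA cytosine methyltransferase, had 423 reads in morphants and 917 in controls (0.454-fold), and clk2b, a kinase of splicing factors, had 111 in morphants and 263 in controls (0.416-fold). suz12b, a core subunit of the Polycomb repressive complex that methylates histone H3, had 415 reads in morphants and 826 in controls (0.495-fold, 0.439 to 0.557). It was the only gene past 2-fold of 24 measured in a list of chromatin silencing genes and DNA methylation cofactors. That list had 17 members below 0 and a median log2 ratio of -0.20. Listed but not matched by symbol were uhrf1, uhrf2, zbtb38 and eed, so they are not among the 24. The deacetylase hdac1 stood at 1.11-fold and the replication clamp pcna at 1.08-fold.

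Other most-read lower genes act in division, signalling and metabolism. kif23, a kinesin of the central spindle needed for cytokinesis, had 794 reads in morphants and 1667 in controls (0.469-fold). map3k7, the TAK1 kinase downstream of TGF-beta and cytokine receptors, had 354 in morphants and 880 in controls (0.396-fold). Both stayed well covered in both libraries. cpt1a2b, a carnitine palmitoyltransferase of fatty acid import into mitochondria, had 225 reads in morphants and 555 in controls (0.399-fold), and sptlc1, a subunit of the first enzyme of sphingolipid synthesis, had 169 in morphants and 391 in controls (0.426-fold). The dual oxidase duox had 148 reads in morphants and 382 in controls, the mitochondrial ribosomal protein gene mrpl4 had 112 in morphants and 317 in controls, the ciliary transport gene ift80 had 119 in morphants and 275 in controls, and the lysosomal aspartylglucosaminidase aga had 100 in morphants and 284 in controls. These 4 lay between 0.347- and 0.426-fold.

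For a few most-read lower genes no role is stated here. zgc:77262, which has no close KEGG match, had 819 reads in morphants and 2439 in controls (0.331-fold), and si:dkey-19a16.7 had 214 in morphants and 499 in controls (0.422-fold). hp, matched to haptoglobin, had 321 reads in morphants and 749 in controls (0.422-fold), spread over only 23.3% of its length in morphants and 20.3% in controls. The lower gene with most reads, ENSDARG00000057085, has neither a symbol nor a close KEGG match and is named here after its values were seen, with 2012 reads in morphants and 4242 in controls (0.467-fold).

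Patterning genes were among the lower genes at low counts. Of 324 measured genes in patterning and segmentation terms 5 were lower and 3 higher, 1.54% and 0.93%, beside 0.663 and 1.87% of all measured genes. Of the 5 lower genes 3 had fewer than 25 morphant reads and passed the read minimum through their control reads. The deposited terms placed neither the lower gene bmp2b nor the higher gene hoxc11a in this group, so its shares leave out some patterning genes. bmp2b had 38 reads in morphants and 84 in controls, and hoxc11a had 43 in morphants and 19 in controls. Dorsal/ventral pattern formation had 3 lower of 42 (zeb2b, lft1 and irx4b) with a median log2 ratio of -0.20, and brain development had 3 lower of 97. zeb2b, a zinc-finger homeobox repressor, had 61 reads in morphants and 123 in controls (0.488-fold). lft1, a secreted Nodal antagonist, had 34 in morphants and 85 in controls (0.394-fold), and the homeobox gene irx4b had 20 in morphants and 50 in controls. Nervous system terms held 11 lower and 15 higher genes of 974, which is 1.13% and 1.54%. Of those 11 lower genes 8 had fewer than 25 morphant reads, and 5 of the 15 higher genes had fewer than 25 control reads. In brain development 2 of the 3 lower genes had fewer than 25 morphant reads, and in dorsal/ventral pattern formation 1 of 3.

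Markers of stage and tissue lay above 0 in some lists and below 0 in others. Of 10 measured genes that fade after gastrulation 8 lay below 0, with a median log2 ratio of -0.37 and chrd, a BMP antagonist, at 772 reads in morphants and 1348 in controls (0.564-fold). Of 29 matched genes of later differentiation only 10 were measured, and all 10 lay above 0 with a median of 0.31. Among them apoa2, an apolipoprotein of the yolk syncytial layer, had 4230 reads in morphants and 2977 in controls (1.40-fold). All 5 measured neural markers lay below 0 (median -0.42, summed 624 CPM in morphants and 796 in controls), and all 5 epidermal markers lay above 0 (median 0.20, summed 13506 in morphants and 11906 in controls). Of 5 somite and presomitic markers 4 lay below 0 (median -0.39). The smaller lists had medians of 0.56 (2 hatching gland markers), 0.075 (3 blood and vessel) and -0.105 (3 notochord). Below these were -0.127 (4 pronephros), -0.358 (1 germ cell) and -0.375 (3 neural crest). None of these markers was past 2-fold apart from lft1 of the gastrula list. Their part in the counts of higher and lower genes was not tested. Only 2 of 5 markers of adult or later tissues were matched, myl7 and ins, and neither had enough reads to be measured. The ins gene had 0 reads in morphants and 2 in controls.

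By KEGG entry, counting only close matches (an E-value of 1e-50 or less, a limit set after the values were seen), 145 of 7803 measured genes were higher (1.86%) and 44 were lower (0.56%). Classes of entries were gathered by key words in the entry names. Solute carriers had 5 higher and 2 lower genes of 223, and entries named as receptors 10 and 2 of 356. The latter take in the adapter ldlrap1b and the intracellular calcium channels itpr1b and ryr3, so they are not all cell-surface receptors. Ribosomal proteins had 0 of 66 in either direction with a median log2 ratio of 0.15, and cytochrome P450 enzymes had 0 of 40. These zeros depend on the limit. With any KEGG match, ribosomal proteins had 1 higher gene (rps27l) and 1 lower gene (mrpl4) of 126. The higher gene rps27l had 1156 reads in morphants and 175 in controls (6.50-fold). Any match to cytochrome P450, which takes in genes of other names such as atxn1b, gave 3 higher of 65. Entries shared by several changed genes were few. Sestrins had 3 higher of 4: sesn3, sesn1 with 619 reads in morphants and 214 in controls (2.85-fold), and ENSDARG00000071547, whose best protein match is a sestrin-3-like protein, with 399 in morphants and 109 in controls (3.604-fold). The fourth, sesn2, stood at 76 reads in morphants and 74 in controls.

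The KEGG entry with most changed genes was the KRAB zinc finger family, an entry named after mammalian DNA-binding repressors. It held 10 higher (3.03%) and 6 lower (1.82%) of 330 measured genes, and its median log2 ratio was -0.001. Its best-read higher members were si:ch211-241n15.3, with 90 reads in morphants and 41 in controls, and znf1021, with 87 in morphants and 42 in controls. On the lower side ENSDARG00000090070 had 34 reads in morphants and 85 in controls. Of these, 7 of the 10 higher genes had fewer than 25 control reads and 5 of the 6 lower genes fewer than 25 morphant reads, so most of them passed the read minimum through the library where they are high. Only uniquely mapped reads were counted, and for a multigene family such as this the reads common to several members are not in these values.

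Many zebrafish genes exist as a and b copies left from the genome duplication of bony fishes. Genes were paired here by a final a or b in the name. Some such letters name older separate genes, as in atg9a and atg9b or rasl11a and rasl11b, so not every pair stems from that duplication. The pairs offer a comparison within the same libraries. This comparison was chosen after the values were seen. Of the higher genes 55 had a partner of the same name in the tables, and 36 of those partners were measured. Of these 36 partners 32 stayed within 2-fold and 4 were also higher, which is both copies of junb and both copies of slc12a7. That is 88.9% within and 11.1% higher, beside 97.5% within and 1.87% higher over all measured genes. The 11.1% counts the junb and slc12a7 pairs from both sides, since each copy is the partner of the other. In addition junba, with 13 control reads, was placed past 2-fold by the read minimum. Partners under the minimum do not enter, such as nr1d2a, with 37 reads in morphants and 6 in controls beside nr1d2b. The lower genes had 12 named partners, of which 4 were measured and all 4 stayed within 2-fold.

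Some well-read pairs are given as examples. foxo3b was 12.8-fold higher, while foxo3a had 665 reads in morphants and 755 in controls (0.867-fold, 0.780 to 0.964). pik3r3a was 3.84-fold higher, while pik3r3b had 594 reads in morphants and 619 in controls (0.945-fold, 0.843 to 1.06). ptp4a3a, a tyrosine phosphatase, had 879 reads in morphants and 278 in controls (3.11-fold), while ptp4a3b had 1129 in morphants and 1258 in controls (0.884-fold, 0.815 to 0.958). In these 3 pairs the intervals of the copies are far apart. On the lower side suz12b stood beside suz12a with 1165 reads in morphants and 1128 in controls (1.02-fold, 0.936 to 1.11), and gsk3bb, a copy of glycogen synthase kinase 3 beta, had 38 reads in morphants and 95 in controls beside gsk3ba with 1595 in morphants and 1507 in controls (1.04-fold). Beside zeb2b, zeb2a had 1626 reads in morphants and 1669 in controls (0.959-fold), so 3 of the lower genes stood beside a partner near 1. In the igf2 and rps6ka3 pairs the partner also lay above 1 with its whole interval, with igf2b at 1.55-fold (1.24 to 1.95) and rps6ka3b at 1.73-fold (1.22 to 2.47).

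**Figure D5:**
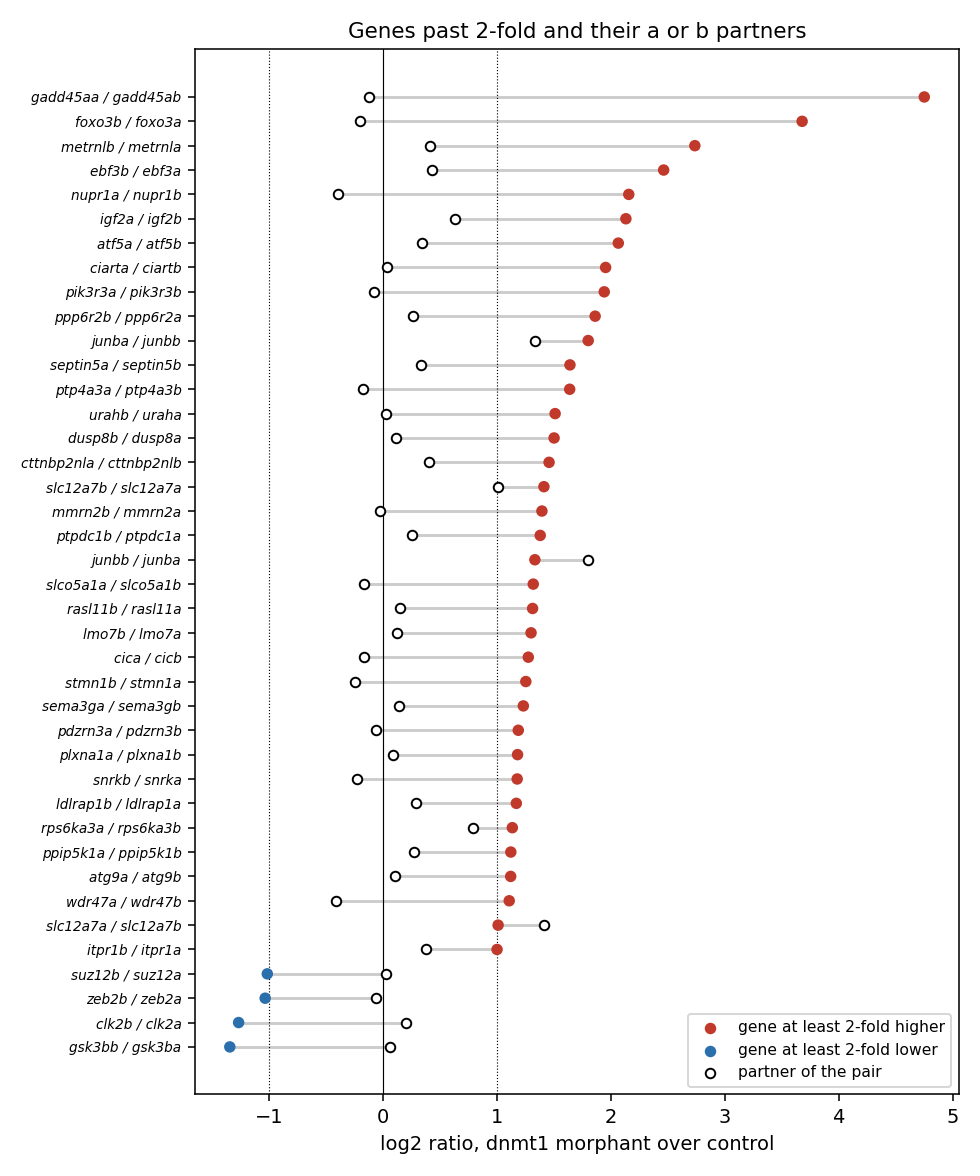
Log2 ratio of dnmt1 morphant over control for genes past 2-fold (filled; red higher, blue lower) and for their measured a or b partners (open), joined by a line. Open circles cluster near 0, and only the junb and slc12a7 pairs have both copies past 2-fold.

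The 2-fold limit cut through a continuous range. With at least 200 reads, the higher genes nearest to it were ENSDARG00000051805 at 2.01-fold and slc12a7a at 2.01-fold, and the genes just below were ENSDARG00000019659 at 1.96-fold and marchf8 at 1.93-fold. On the other side suz12b at 0.495 and nudcd2 at 0.489 were just inside, and ttc21b at 0.5 and mao at 0.504 just outside. The interval of slc12a7a was 1.72 to 2.36, which spans the limit.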

How the data were processed

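Zebrafish whole-embryo RNA was compared between 1 dnmt1 morphant and 1 control library. Each table, per the file headers, gives uniquely mapped read counts per Ensembl gene, not normalized, with RPKM and the covered fraction of each gene, all deposited by the authors. The submitters' processing notes name TopHat2, BWA, HTSeq 0.6.1 and MACS2 without roles. For the genome build, strand setting and filters nothing is given in the labels. Methylated DNA libraries, whose fold enrichment per peak is a ratio deposited by the authors, were not used, and promoter sequence was not analysed here.

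A dash was read as 0, 376 of 25022 rows shared an ID and were added up (24832 IDs) and counts were divided by the library total. The fold is morphant over control with no prior count. Genes needed 50 reads over both libraries. Intervals (95%) are exact (Clopper-Pearson) for a gene's reads split between the libraries, and reads are not independent molecules. No test was run. The counting was tested on simulated data.

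Symbols came from an Ensembl table (8408 IDs), through RefSeq from the authors' listed protein matches (7696), from a KEGG gene of the same name (2029) or from capital Ensembl names (2136), and 4459 IDs had none. For 3716 IDs with both an Ensembl and a protein-match name, 94.6% were the same. GO and KEGG entries are the authors' deposited annotation.

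The genes and gene lists were chosen with earlier results of these data known. Named genes are dnmt1, the 15 most-read higher and lower genes with a symbol, up to 4 members past 2-fold and 2 within it of each described list, term or class, and the 2 nearest the limit on each side with at least 200 reads. Others are named for a comparison, after their values were seen. One gene is not reported by name here. edgeR 4.0.16 (R 4.3.3) gave TMM factors and the prior-count alternative. All other steps used Python 3.11.15 with SciPy 1.17.1, pandas 2.3.3, numpy 2.4.6 and, for plots, matplotlib 3.10.9.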

Additional observations from a re-analysis of the deposited data

How the results depend on the processing

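The main counts were 254 higher and 90 lower genes. TMM scaling, which shifts every log2 ratio by -0.04, gave 227 and 103, a prior count of 2 gave 220 and 74, and keeping the best-read row of a shared ID gave 255 and 90. The read minimum moved the counts most: 572 and 234 at 20 reads, 88 and 22 at 200 reads, and 2725 and 2400 with no minimum. A limit of 1.5-fold gave 891 and 462 genes, 4-fold gave 46 and 2, a whole interval past 2-fold gave 84 and 13, and log2 (RPKM + 1) gave 107 and 32. At 200 reads, members of the lists made with earlier results known numbered 11 higher and 1 lower instead of 17 and 2, and GO-annotated genes 65 and 15 instead of 175 and 52. At that minimum the median log2 ratio was 0.32 in the Bcl2 family, 0.20 in the interferon list and 0.52 in the AP-1 list, with fewer members each. In the length classes at 200 reads, 0.69% of the shortest and 1.06% of the longest genes were higher and 0.26% of the shortest were lower. By mean instead of control level, 5.08% of the lowest and 0.55% of the highest class were higher and 0.15% of the highest were lower. Any KEGG match instead of close ones, an alternative chosen after seeing the data, gave 212 higher and 73 lower genes instead of 145 and 44. At 200 reads fewer genes enter by construction; otherwise the cause was not tested. No paired analysis was possible because there is 1 RNA library per group, and no library could be left out for the same reason. Folds of genes with few reads rest on wide counting intervals, such as 9.12 to 136.4 for isg15.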
